A study of Danio rerio with 30 samples.

Results

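AP-1 is a transcription factor built as a dimer from Fos, Jun and Atf subunits, and its subunit genes were followed here in neuromast cells of zebrafish larvae that carry the isl1a psi97 mutation and of their siblings. These genes and the gene lists used below were chosen with earlier results of these data known. That limits every share set beside all tested genes. The subunit genes were taken by name: fosaa, fosab, fosb, fosl1a, fosl2, jun, the 2 junb genes, jund and atf3. They make 10 of the 32520 genes in the table of read counts, and all 10 were among the 22000 genes with enough reads to be tested. The 2 junb genes are both listed as JUNB, so they are told apart here by their Ensembl IDs, and fosab and fosl1a are the genes listed as FOS and FOSL1.

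The study asked how loss of isl1a, a LIM homeodomain transcription factor gene, changes lateral line cells at rest and after their hair cells are killed. All larvae carried the she:mCherry reporter and were at 5 dpf (days post fertilization), and mCherry-positive cells were sorted after dissociation with trypsin. The 12 RNA-seq libraries form 4 groups of 3: isl1a psi97 mutants 3 h after neomycin, isl1a psi97 mutants in homeostasis, siblings 3 h after neomycin and siblings in homeostasis. Neomycin, an antibiotic that kills hair cells, was given at 300 µM for 30 min and washed out, and larvae in homeostasis received none. The labels leave out which isl1a genotypes the siblings had, how many larvae went into a sample and whether replicates were separate clutches. What the p-values weigh is therefore the variation among these libraries, which may be technical. The sorted cells are a mixed bulk sample.

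AP-1 binds DNA as a Jun dimer or as a Jun partner joined to a Fos or Atf subunit, and which subunits are present changes what the dimer does. Fos and Jun genes are immediate early genes: MAP kinase cascades and serum response factor switch them on within minutes of growth factors, wounding or stress. Fosl1 and Fosl2 usually appear later and last longer than Fos and Fosb, and in mammals Fosl1 is known from wound edges and migrating epithelia. A neuromast holds sensory hair cells ringed by support cells, and support cells divide and replace hair cells after damage.

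Reads in genes came to 23918226 to 30354161 per library. The genotype labels held: ISL1, taken as isl1a, had 0 to 35 reads in a mutant library and 3351 to 6634 in a sibling library. The 22 hair cell markers summed to 1282 to 2310 CPM in mutants at 3 h and 13984 to 17623 CPM in untreated mutants, against 2360 to 6213 CPM in siblings at 3 h and 28565 to 33643 CPM in untreated siblings. The 21 neuromast support and pan-neuromast markers summed to 9856 to 12125 CPM in mutants at 3 h and 8501 to 9274 CPM in untreated mutants. In siblings they summed to 6117 to 12490 CPM at 3 h and 6162 to 7691 CPM without treatment. In this sum untreated mutants lay above untreated siblings without overlap, and the treated groups overlapped. Gene by gene, at an adjusted p under 0.05 in edgeR, 1 of the 21 (4.76%) was higher and 2 (9.52%) lower in untreated mutants. At 3 h 2 (9.52%) were higher and 4 (19%) lower in mutants. Of all tested genes, 1.85% and 1.72% were in homeostasis and 4.9% and 4.88% at 3 h. A fit of only the 2 groups called 1 of the 21 at 3 h, and single libraries left out gave as few as 1 in homeostasis. None of the 21 was at 0 in any library. Replicate 2 of the neomycin-treated siblings stood apart: it correlated with the rest of its group at 0.925 on average, while the other libraries did so at 0.943 to 0.977. Fold changes that moved by over 1.5 times without it are given both ways. CPM are read counts made relative to library size, with sizes scaled by the TMM method. In bulk samples, fewer cells of a type and less RNA per cell cannot be told apart.

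The Fos genes fell into different orders across the 4 groups. fosl1a had 378, 309 and 329 CPM in mutants at 3 h and 29.3, 35.9 and 40.4 CPM in untreated mutants, against 27.7, 20.4 and 25.7 CPM in siblings at 3 h and 3.11, 2.28 and 4.09 CPM in untreated siblings. No library of fosl1a overlapped with a library of another group, and the mean of the mutants at 3 h was 107 times that of untreated siblings. fosl2, the close relative of fosl1a, had 121, 82.1 and 115 CPM in mutants at 3 h and 47.7, 31.2 and 51.4 CPM in untreated mutants, against 19.5, 19.5 and 18.9 CPM in siblings at 3 h and 12.4, 10.9 and 10.6 CPM in untreated siblings. Its 4 groups did not overlap either and stood in the same order as those of fosl1a, over a narrower range of 9.37 times.

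fosab, the zebrafish gene closest to mammalian Fos, was highest in treated siblings. It had 54.9, 60.3 and 46.8 CPM in mutants at 3 h and 36.2, 29.8 and 30.0 CPM in untreated mutants, against 55.2, 187 and 63.9 CPM in siblings at 3 h and 24.2, 8.73 and 12.8 CPM in untreated siblings. The value of 187 CPM is the library that stood apart, and the other 2 treated siblings lay next to or within the range of treated mutants. fosb, a Fos gene with a strong transactivation domain in mammals, had 10.8, 8.86 and 7.35 CPM in mutants at 3 h and 1.21, 0.625 and 1.05 CPM in untreated mutants, against 22, 28.1 and 19.5 CPM in siblings at 3 h and 1.86, 0.631 and 0.621 CPM in untreated siblings. All 3 treated siblings exceeded all 3 treated mutants, and the untreated groups overlapped. fosaa, the second copy of Fos, had at most 21 reads in a library, 0.601 to 0.843 CPM in mutants at 3 h and at most 0.526 CPM in any other library, and passed no test.

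Among the Jun genes, the mutant and sibling libraries of jun did not overlap at either time, though in homeostasis edgeR did not call it (adjusted p = 0.20). It had 731, 886 and 841 CPM in mutants at 3 h and 638, 599 and 581 CPM in untreated mutants, against 255, 377 and 261 CPM in siblings at 3 h and 483, 329 and 435 CPM in untreated siblings. Every mutant library lay above every sibling library, and siblings at 3 h had the lowest mean. JUNB (ENSDARG00000104773) had 686, 679 and 663 CPM in mutants at 3 h and 352, 246 and 328 CPM in untreated mutants, against 126, 221 and 125 CPM in siblings at 3 h and 92.6, 52.6 and 79.6 CPM in untreated siblings. Its groups stood in the order of fosl1a without overlap. In mammals JunB often acts as a weaker activator than Jun and opposes it at some genes.

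JUNB (ENSDARG00000074378) had 164, 144 and 145 CPM in mutants at 3 h and 91.1, 60.9 and 73.4 CPM in untreated mutants, against 19.1, 19.1 and 11.5 CPM in siblings at 3 h and 15.3, 5.89 and 26.4 CPM in untreated siblings. The mutant groups were separate from each other and from siblings, while the sibling groups overlapped. jund, which in mammals is present in resting cells, had 107, 67.8 and 96.0 CPM in mutants at 3 h and 28.4, 39.9 and 38.9 CPM in untreated mutants, against 41.3, 22 and 42.2 CPM in siblings at 3 h and 42.9, 25.1 and 30.5 CPM in untreated siblings. Only the mutants at 3 h stood apart from the other 3 groups, which overlapped. atf3, a stress-induced gene whose product pairs with Jun proteins, had 194, 177 and 153 CPM in mutants at 3 h and 50.7, 58.8 and 54.4 CPM in untreated mutants, against 28.6, 54.5 and 35.1 CPM in siblings at 3 h and 22.4, 9.15 and 30.8 CPM in untreated siblings. Treated mutants were above all others, and untreated mutants overlapped with treated siblings through the library that stood apart.

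Not all neighbours in these orders of level were told apart by the tests below. For fosl1a the untreated mutants and treated siblings did not pass, for atf3 neither these nor the treated and untreated siblings did, and for fosl2 every neighbouring step did. For JUNB (ENSDARG00000074378) the treated and untreated mutants and the treated and untreated siblings did not pass, and for JUNB (ENSDARG00000104773) every step did. For jun no neighbouring step passed, and for jund only the step from treated to untreated mutants did. For fosab no neighbouring step passed. For fosb the treated groups differed, as did treated and untreated larvae of each genotype, and the untreated groups did not pass.

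**Figure D1:**
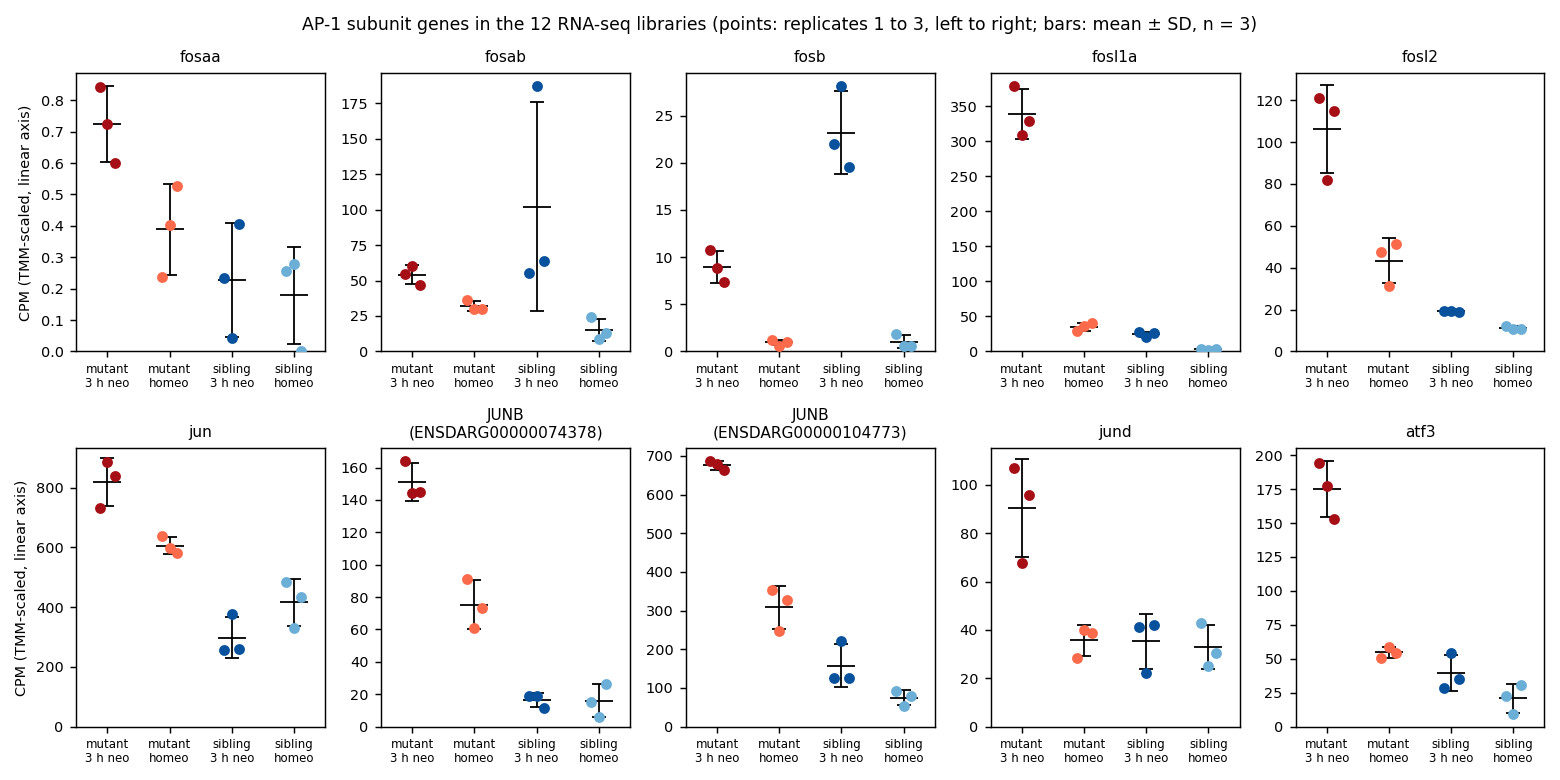
Level of each AP-1 subunit gene in CPM (linear axis from 0) in the 12 libraries, with mutants 3 h after neomycin, mutants in homeostasis, siblings 3 h after neomycin and siblings in homeostasis from left to right; points are replicates and bars the mean ± SD of 3. fosl1a averages 339 CPM in mutants at 3 h and 3.16 CPM in untreated siblings, while fosb is highest in treated siblings at 19.5 to 28.1 CPM.

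In homeostasis, 4 of the 10 genes were higher in mutants than in siblings and none was lower, where 1.85% of all tested genes were called higher and 1.72% lower. They were the late Fos genes and both junb genes. fosl1a was 11.1 times as high in mutants (log2 fold change 3.48 ± 0.25 SE, adjusted p = 4.2e-05 in edgeR's quasi-likelihood test, as for every adjusted p below unless another tool is named). fosl2 averaged 43.4 ± 10.8 CPM in mutants and 11.3 ± 0.981 CPM in siblings (SD, n = 3 each, log2 fold change 1.94 ± 0.22, adjusted p = 0.00078 from edgeR). JUNB (ENSDARG00000104773) averaged 309 ± 55.7 CPM in mutants and 74.9 ± 20.4 CPM in siblings (SD, n = 3 each, adjusted p = 0.002 from edgeR), 2.04 ± 0.28 on the log2 scale. JUNB (ENSDARG00000074378) had a log2 fold change of 2.25 ± 0.41 (adjusted p = 0.011). These 4 calls held when any single library was left out, with adjusted p of at most 0.049.

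The immediate early Fos genes were not called in homeostasis. fosab had a log2 fold change of 1.07 (95% interval 0.12 to 2.02, adjusted p = 0.24) and fosb of -0.11 (interval -1.02 to 0.80, adjusted p = 0.95). atf3 stood at 54.6 ± 4.03 CPM in mutants and 20.8 ± 10.9 CPM in siblings (SD, n = 3 each), just short of the threshold at an adjusted p of 0.051 (log2 fold change 1.40). This depended on the setting. atf3 was called by DESeq2 (adjusted p = 0.0062) and limma-voom (adjusted p = 0.024). In edgeR it was called with upper-quartile scaling, both other filters and a fit of only the 2 groups (adjusted p from 0.038 to 0.046). So it was without treated sibling replicate 1 (adjusted p = 0.042) or untreated sibling replicate 3 (adjusted p = 0.036). With DESeq2 size factors or a replicate block it was not. jun had a log2 fold change of 0.54 (adjusted p = 0.20) and jund of 0.12 (adjusted p = 0.92), and fosaa of 1.08 with an interval from -0.77 to 2.94. Without replicate 2 of the treated siblings, which also enters the shared estimate of spread, 7 genes were called higher: atf3 (adjusted p = 0.018), fosab (adjusted p = 0.036) and jun (adjusted p = 0.045) joined the 4. Leaving that library out also moved the share of all tested genes called, in either direction, from 3.57% to 9.19%. For 7 of the 10 genes the mutant and sibling libraries did not overlap, with mutants higher, and this held for 14.5% of all tested genes, while 15.4% were separate with mutants lower and none of the 10 was. Across the 10 genes the median log2 fold change was 1.24, beside 0.01 for all tested genes.

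At 3 h after neomycin, 7 of the 10 genes were higher in mutants than in siblings and 1 was lower, where 4.9% of all tested genes were called higher and 4.88% lower. fosl1a was again the gene with the greatest difference, 13.8 times as high in mutants (log2 fold change 3.78 ± 0.24 SE, adjusted p = 9.1e-06). JUNB (ENSDARG00000074378) followed, at 151 ± 11.6 CPM in mutants and 16.6 ± 4.36 CPM in siblings (SD, n = 3 each, log2 fold change 3.19, adjusted p = 0.00091 from edgeR). fosl2 had a log2 fold change of 2.46 (adjusted p = 0.0001), atf3 of 2.15 (adjusted p = 0.0035), JUNB (ENSDARG00000104773) of 2.10 (adjusted p = 0.00078) and jun of 1.46 (adjusted p = 0.0013). jund averaged 90.4 ± 20.3 CPM in mutants and 35.2 ± 11.4 CPM in siblings (SD, n = 3 each, log2 fold change 1.36 ± 0.29, adjusted p = 0.013 from edgeR).

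fosb went the other way at 3 h, with 8.99 ± 1.71 CPM in mutants and 23.2 ± 4.41 CPM in siblings (SD, n = 3 each, log2 fold change -1.37 ± 0.37, adjusted p = 0.038 from edgeR). Its direction was kept under every single library left out, and its call was lost under 7 of those 12, at adjusted p from 0.058 to 0.15. The 7 were replicates 1, 2 and 3 of the treated mutants, replicates 1 and 3 of the untreated mutants and replicates 1 and 2 of the treated siblings. The call of jund was lost without replicate 1 of the treated mutants (adjusted p = 0.057) and in a fit of only the 2 groups (adjusted p = 0.070). fosab had a log2 fold change of -0.92 (interval -1.86 to 0.03, adjusted p = 0.20), which came to -0.13 without replicate 2 of the treated siblings, and fosaa of 1.61 (interval -0.18 to 3.41, adjusted p = 0.24). For 8 genes the libraries did not overlap with mutants higher and for fosb with mutants lower, as for 12.3% and 13.6% of all tested genes. Taken over the 10 genes, the median was 1.86 on the log2 scale, beside -0.14 for all tested genes.

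**Figure D2:**
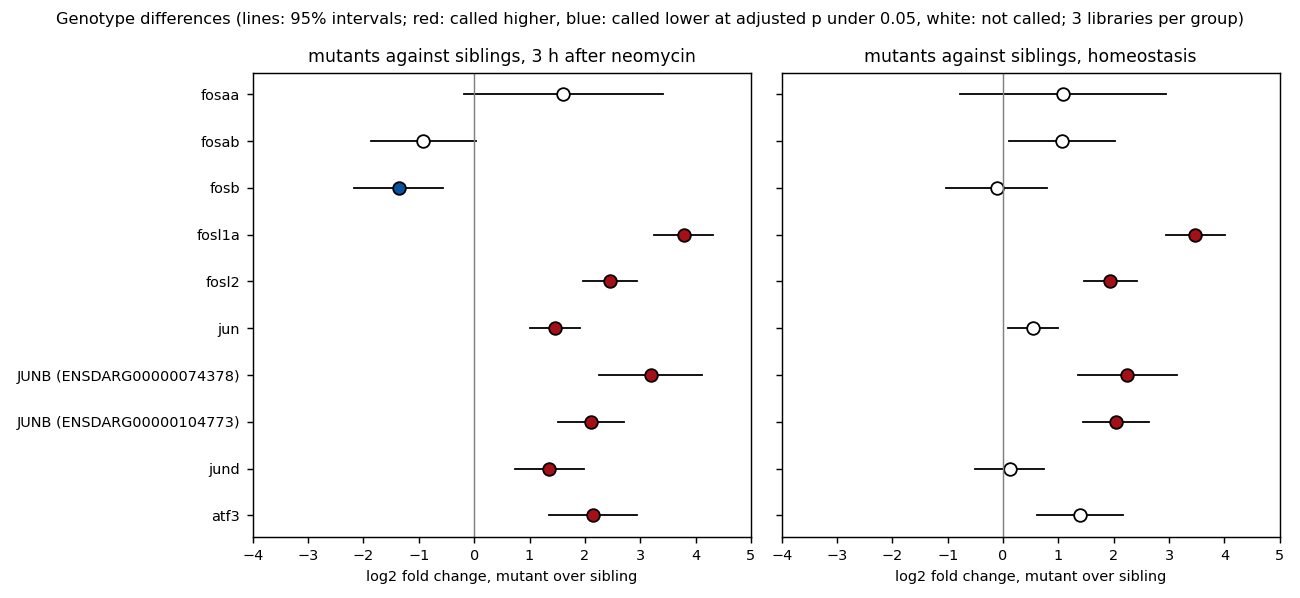
Log2 fold change of mutants over siblings for each AP-1 subunit gene 3 h after neomycin (left) and in homeostasis (right), with 95% intervals; red points were called higher, blue points lower, white points not called. fosl1a lies at 3.78 and 3.48, and fosb is the only point called lower, at -1.37 after neomycin.

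In mutants, 6 of the 10 genes were higher 3 h after neomycin than in homeostasis and none was lower, where 6.95% of all tested genes were called higher and 9.56% lower. fosl1a rose 9.62-fold (log2 fold change 3.27 ± 0.24 SE, adjusted p = 1.3e-05) and fosb 9.27-fold (3.21 ± 0.42, adjusted p = 0.0003). atf3 averaged 175 ± 20.8 CPM in treated mutants and 54.6 ± 4.03 CPM in untreated mutants (SD, n = 3 each, log2 fold change 1.68, adjusted p = 0.0068 from edgeR). jund rose by 1.34 on the log2 scale (adjusted p = 0.0075), fosl2 by 1.29 (adjusted p = 0.0016) and JUNB (ENSDARG00000104773) by 1.13 (adjusted p = 0.012). The call of JUNB (ENSDARG00000104773) was lost without replicate 2 of the untreated mutants (adjusted p = 0.064). In a fit of only the 2 groups, 29.8% of all tested genes were called in either direction, beside 16.5% in the main fit. That fit called 9 of the 10 genes, adding fosab, jun and JUNB (ENSDARG00000074378). That junb gene had a log2 fold change of 1.01 (adjusted p = 0.11), fosab of 0.75 (interval -0.19 to 1.70, adjusted p = 0.29), jun of 0.44 (adjusted p = 0.19) and fosaa of 0.89 (adjusted p = 0.52). In all 10 genes the treated libraries lay above the untreated ones without overlap, as did 20.8% of all tested genes, while 22.7% lay below and none of the 10 did. Medians of the log2 fold change were 1.21 for the 10 genes and -0.04 for all tested genes.

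In siblings, 5 of the 10 genes were higher 3 h after neomycin than in homeostasis and none was lower, where 11.2% of all tested genes were called higher and 10.8% lower. All 4 Fos genes other than fosaa were among them. fosb rose 22.1-fold (log2 fold change 4.46 ± 0.43 SE, adjusted p = 2.3e-05), and 5.14 on the log2 scale without replicate 1 of the untreated siblings. fosl1a rose 7.78-fold (2.96 ± 0.24, adjusted p = 9.2e-06). fosab rose by 2.74 ± 0.46 on the log2 scale (adjusted p = 0.0012), and by 1.92 (adjusted p = 0.00069) without replicate 2 of the treated siblings. fosl2 rose by 0.77 ± 0.22 (adjusted p = 0.023) and JUNB (ENSDARG00000104773) by 1.07 ± 0.27 (adjusted p = 0.013).

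The calls of fosl2 and JUNB (ENSDARG00000104773) in siblings were both lost in a fit of only the 2 groups (adjusted p = 0.079 and 0.080), and that of fosl2 also without a filter on low counts (adjusted p = 0.053). fosl2 also missed the threshold without replicate 1 of the treated siblings or without any 1 of the untreated siblings (adjusted p from 0.053 to 0.082). JUNB (ENSDARG00000104773) also missed it without replicate 2 of the untreated siblings (adjusted p = 0.062), which left 3 genes called. jun had a log2 fold change of -0.48 (interval -0.93 to -0.03, adjusted p = 0.12), and without replicate 2 of the treated siblings it was called lower (-0.74, adjusted p = 0.0072). atf3 had a log2 fold change of 0.92 (adjusted p = 0.082), and was called without replicate 3 of the untreated siblings (1.32, adjusted p = 0.031). JUNB (ENSDARG00000074378) stood at 0.07 with an interval from -0.80 to 0.93, jund at 0.10 with an interval from -0.52 to 0.72 and fosaa at 0.36 (adjusted p = 0.82). For 5 genes the treated libraries lay above the untreated ones without overlap, as did 17.5% of all tested genes, while 17.2% lay below and none of the 10 did. The median log2 fold change was 0.85 for the 10 genes and 0.10 for all tested genes.

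Whether the neomycin responses of mutants and siblings differed was tested directly, as the response of mutants minus that of siblings. None of the 10 genes passed this test in edgeR, where 0.105% of all tested genes were called, and none passed in DESeq2 or limma-voom. At an unadjusted p under 0.05, edgeR gave 4 genes, beside 8.89% of all tested genes. The difference was -1.99 for fosab (95% interval -3.33 to -0.64, adjusted p = 0.34) and -1.25 for fosb (interval -2.47 to -0.04, adjusted p = 0.54). It was 0.92 for jun (interval 0.29 to 1.55, adjusted p = 0.35) and 1.24 for jund (interval 0.36 to 2.12, adjusted p = 0.37). Without replicate 2 of the treated siblings, jun was called (1.16, adjusted p = 0.035) and the difference for fosab was -1.18. That fit called 0.84% of all tested genes. For fosb the difference was -1.95 without replicate 1 of the untreated siblings. For fosl1a the difference was 0.31 with an interval from -0.38 to 0.99, so the responses of fosl1a could differ by up to 0.99 on the log2 scale. fosl2 stood at 0.52 (interval -0.13 to 1.18), atf3 at 0.75 (interval -0.32 to 1.83) and the junb genes at 0.94 and 0.06.

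**Figure D3:**
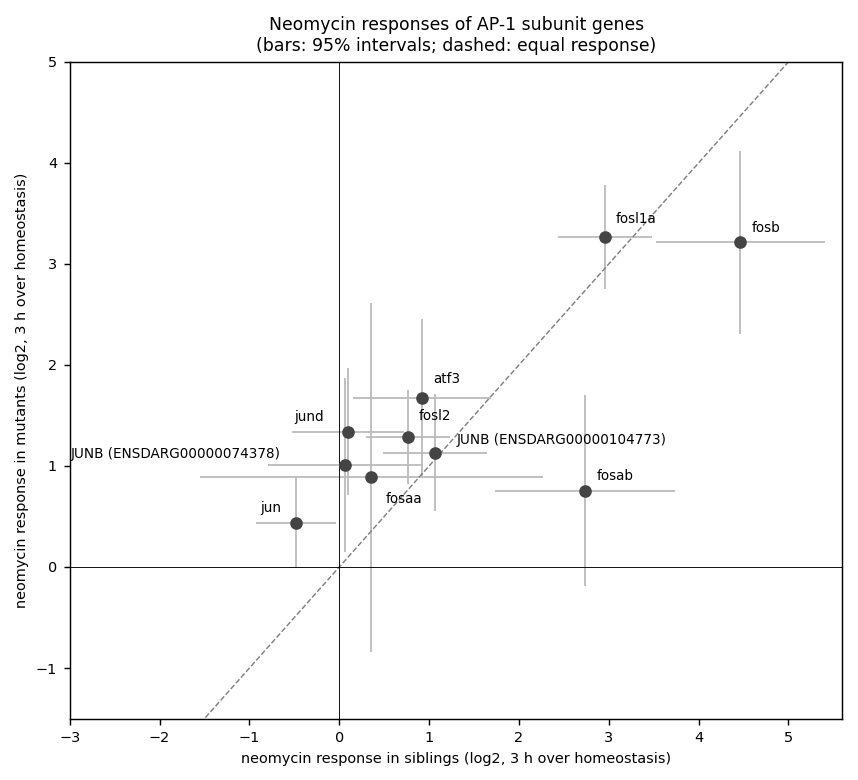
Neomycin response of each AP-1 subunit gene in mutants (vertical axis, log2 fold change of 3 h over homeostasis) against that in siblings (horizontal axis), with 95% intervals; the dashed line marks equal responses. fosl1a lies near the line at 3.27 and 2.96, fosab at 0.75 and 2.74 and fosb at 3.21 and 4.46 lie below it, and no distance from the line passed the test.

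Mutants in homeostasis were also set against siblings 3 h after neomycin, to place the resting level of the mutants beside the level that damage gives in siblings. This comparison shares its libraries with those above. Of the 10 genes, 4 were higher in untreated mutants and 2 lower, where 7.57% of all tested genes were called higher and 8.03% lower. fosl2 was 2.25 times as high in untreated mutants (log2 fold change 1.17 ± 0.22 SE, adjusted p = 0.0047), jun 2.04 times (1.03 ± 0.21, adjusted p = 0.0076) and JUNB (ENSDARG00000074378) 4.54 times (adjusted p = 0.0053). JUNB (ENSDARG00000104773) had a log2 fold change of 0.97 (adjusted p = 0.028), a call lost without replicate 1 or 3 of the untreated mutants or replicate 3 of the treated siblings (adjusted p from 0.068 to 0.083) and in a fit of only the 2 groups (adjusted p = 0.092).

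fosb and fosab were lower in untreated mutants than in treated siblings. fosb averaged 0.963 ± 0.304 CPM in untreated mutants and 23.2 ± 4.41 CPM in treated siblings (SD, n = 3 each, log2 fold change -4.58, adjusted p = 0.00021 from edgeR). fosab had a log2 fold change of -1.67 (adjusted p = 0.025), which lost its call without any 1 of the untreated mutants (adjusted p from 0.072 to 0.098) and came to -0.87 without replicate 2 of the treated siblings (adjusted p = 0.071). fosl1a averaged 35.2 ± 5.6 CPM in untreated mutants and 24.6 ± 3.77 CPM in treated siblings, a log2 fold change of 0.52 with an interval from 0.04 to 0.99 (SD, n = 3 each, adjusted p = 0.13 from edgeR). atf3 stood at 0.47 (interval -0.29 to 1.23), jund at 0.02 (interval -0.60 to 0.64) and fosaa at 0.73 (interval -1.09 to 2.55). In 5 genes untreated mutants lay above treated siblings without overlap and in 2 below, as in 18.1% and 17.2% of all tested genes. On the log2 scale the median was 0.62 for the 10 genes and -0.02 for all tested genes.

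The balance between late and early Fos genes was read as a ratio of counts between 2 genes in the same library, which does not depend on library scaling. fosl1a had 6.89, 5.13 and 7.03 reads per fosab read in mutants at 3 h and 0.808, 1.2 and 1.35 in untreated mutants, against 0.502, 0.109 and 0.402 in siblings at 3 h and 0.128, 0.261 and 0.320 in untreated siblings. All mutant libraries lay above all sibling libraries, and the sibling groups overlapped. The ratio of fosl1a to fosb ran from 34.9 to 44.7 in mutants at 3 h and from 24.1 to 57.5 in untreated mutants, against 0.726 to 1.32 in siblings at 3 h and 1.67 to 6.59 in untreated siblings. The mutant groups overlapped in that ratio, and the treated siblings lay below the untreated ones. The ratio of fosl2 to fosb ran from 9.27 to 15.6 in mutants at 3 h and from 39.3 to 49.9 in untreated mutants. In siblings it ran from 0.695 to 0.97 at 3 h and from 6.69 to 17.3 without treatment. In this ratio treated mutants overlapped with untreated siblings and lay below untreated mutants. The ratios to fosb rest on few reads in untreated libraries, where fosb had 17 to 58. The ratio of fosl2 to fosab was not taken. Untreated mutant replicate 2 had 848 fosl2 and 811 fosab reads, and untreated sibling replicate 2 had 311 and 249. The untreated genotypes thus overlap in that pair, unlike in the ratios above. These ratios compare groups and not the abundance of the transcripts, since gene length was not corrected for.

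Markers of other cell types moved with some of the groups. The 21 leukocyte markers summed to 670 to 930 CPM in mutants at 3 h and 358 to 419 CPM in untreated mutants, against 446 to 1221 CPM in siblings at 3 h and 171 to 236 CPM in untreated siblings. In homeostasis this sum lay higher in mutants without overlap, while after neomycin the genotypes overlapped. The highest sum, 1221 CPM, came from the treated sibling replicate 2, in which fosab was also highest. CEBPB, itself a bZIP gene, made up 315 to 454 CPM of the sum in mutants at 3 h. Without CEBPB and both genes listed as CXCR4, a choice made after the values were seen, the other 18 markers summed to 188 to 351 CPM in mutants at 3 h and 108 to 161 CPM in untreated mutants, against 268 to 942 CPM in siblings at 3 h and 51.8 to 123 CPM in untreated siblings. Mutants and siblings overlapped in that sum both after neomycin and in homeostasis. lyz, a neutrophil gene, was at most 2.84 CPM and was at 0 in 1 untreated mutant library, 5 MFAP4 copies were at 0 in at least 1 library, and no leukocyte marker was at 0 in all 12. Of the 19 leukocyte markers tested, 4 rose after neomycin in mutants and 14 in siblings, and none fell, where 6.95% and 11.2% of all tested genes rose. These counts were 3 to 10 in mutants and 10 to 15 in siblings over the other settings and libraries left out. In the direct test of the difference between these responses, edgeR, DESeq2 and limma-voom called 0 of the 19. At an unadjusted p under 0.05 edgeR gave 2, beside 8.89% of all tested genes.

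The 11 erythrocyte markers summed to 716 to 1486 CPM in mutants at 3 h and 1141 to 1625 CPM in untreated mutants, against 309 to 555 CPM in siblings at 3 h and 136 to 230 CPM in untreated siblings. They lay higher in mutants without overlap under both conditions, and fosl1a, fosl2 and the junb genes were higher there too. At 3 h, 4 of 11 (36.4%) were called higher in mutants, and 8 (72.7%) in homeostasis. Of all tested genes, 4.9% and 1.85% were. Between treated and untreated mutants, edgeR, DESeq2 and limma-voom called 0 of the 11, and 0 had an unadjusted p under 0.05. In siblings 5 (45.5%) rose, beside 11.2% of all tested genes. That sibling count was 3 with limma-voom and 2 in a fit of only the 2 groups. The 13 skeletal muscle markers summed to 93.6 to 155 CPM in mutants at 3 h and 153 to 251 CPM in untreated mutants, against 78.8 to 91.8 CPM in siblings at 3 h and 53.8 to 69.0 CPM in untreated siblings. These sums also lay higher in mutants without overlap under both conditions. In homeostasis 5 of the 13 (38.5%) were called higher in mutants, and 2 (15.4%) at 3 h, with none lower. DESeq2 called 8 and 6. The 16 heat shock and dissociation stress genes summed to 5206 to 6625 CPM in mutants at 3 h and 4326 to 5193 CPM in untreated mutants. They summed to 4867 to 5400 CPM in siblings at 3 h and 3903 to 5015 CPM in untreated siblings. At 3 h, 4 of the 16 (25%) were called higher in mutants, beside 4.9% of all tested genes. After neomycin, 8 of the 16 (50%) rose and 1 (6.25%) fell in mutants, beside 6.95% and 9.56% of all tested genes. In siblings 4 (25%) rose and 1 (6.25%) fell, beside 11.2% and 10.8%. Over the other settings and libraries left out, calls numbered 2 to 10 in mutants and 3 to 8 in siblings. The count of 2 came without untreated mutant replicate 2. In homeostasis edgeR and limma-voom called 0 of them, DESeq2 called 5, and 5 had an unadjusted p under 0.05 in edgeR. The 7 liver and exocrine pancreas markers summed to 892 to 1687 CPM over the mutant libraries and 2072 to 8836 CPM over the sibling libraries, with the highest sum in the treated sibling replicate 2, and the 15 epidermis and periderm markers to 4507 to 5652 CPM over all 12. That sum hides opposite changes. At 3 h, 3 of the 15 (20%) were called higher and 4 (26.7%) lower in mutants, beside 4.9% and 4.88% of all tested genes. In homeostasis 2 (13.3%) were higher and none lower, beside 1.85% and 1.72%. After neomycin, 1 (6.67%) rose and 3 (20%) fell in mutants, and 4 (26.7%) rose and 1 (6.67%) fell in siblings. The 3 h count was 2 in a fit of only the 2 groups. The hair cell sums were lower in mutants than in siblings at each time, and lower after neomycin in each genotype. Gene by gene, 4 of the 22 (18.2%) were called lower in untreated mutants and 6 (27.3%) in treated mutants, with none higher. Of all tested genes 1.72% and 4.88% were lower. In fits of only the 2 groups these counts were 14 in homeostasis and 0 at 3 h. The homeostasis count was also 0 without any 1 of the untreated mutants. Between untreated mutants and treated siblings, 12 of the 19 leukocyte markers tested (63.2%) were lower and 1 (5.26%) higher. Of the 22 hair cell markers 13 (59.1%) were higher and 2 (9.09%) lower, and of the 11 erythrocyte markers 7 (63.6%) were higher and none lower. Of the 13 muscle markers 6 (46.2%) were higher and none lower. Of all tested genes 7.57% were higher and 8.03% lower. The leukocyte calls numbered 5 without untreated mutant replicate 2 or 3. The part of these cell types and of handling in the AP-1 values was not tested.

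**Figure D4:**
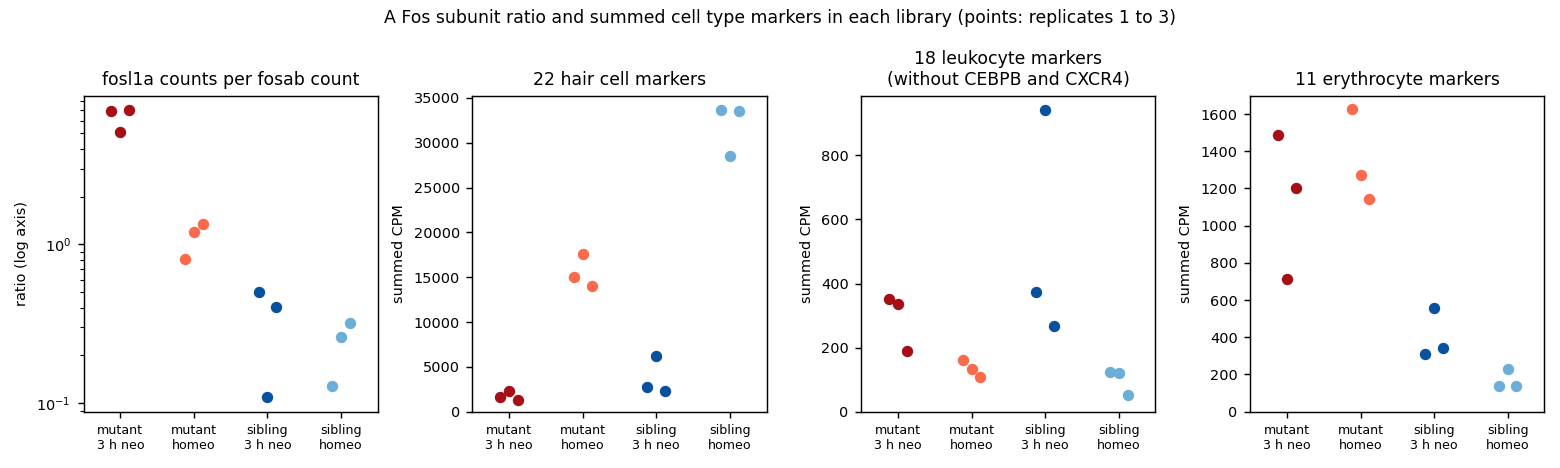
Reads of fosl1a per read of fosab (log axis) and summed CPM of 22 hair cell, 18 leukocyte and 11 erythrocyte markers (linear axes from 0) in each library; points are replicates of mutants 3 h after neomycin, mutants in homeostasis, siblings 3 h after neomycin and siblings in homeostasis. The ratio lies at 5.13 to 7.03 in treated mutants and at 0.109 to 0.502 in treated siblings. Treated sibling replicate 2 has the highest leukocyte sum, 942 CPM. The leukocyte sum leaves out CEBPB and CXCR4, and with them untreated mutants lie above untreated siblings without overlap.

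The 10 genes did not vary as 1 block. Over the 12 libraries, fosl1a had a Pearson correlation in log2 CPM of 0.946 with fosl2, 0.944 with JUNB (ENSDARG00000104773) and 0.943 with atf3. fosab and fosb correlated with each other at 0.852, and with jun at only 0.04 and -0.20. These correlations describe libraries that share groups, depth and sorting. The correlation of fosab with fosl1a was 0.561, and 0.785 over the 11 libraries without treated sibling replicate 2.

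Other tested genes were ranked by likeness to a member only if they had a symbol that is not a clone or locus name. Those most like fosl1a over the 12 libraries were GSN (ENSDARG00000011459), the gene of the actin-severing protein gelsolin, at 0.986, GLIPR2 at 0.983, SALL1 (ENSDARG00000075891) at 0.98, marcksl1a at 0.98 and tmem154 at 0.973. tmem154 averaged 88.2 CPM in mutants at 3 h and 9.11 CPM in untreated mutants, against 8.11 CPM in siblings at 3 h and 1.69 CPM in untreated siblings. Those most like fosab were apela, which encodes a small secreted peptide, at 0.978, surf6 at 0.965, NSUN4 at 0.963, PUS3 at 0.963 and METTL16 at 0.962. apela averaged 52.4 CPM in mutants at 3 h and 29.5 CPM in untreated mutants, against 86.1 CPM in siblings at 3 h and 16.7 CPM in untreated siblings. Those most like atf3 were tnfrsf1a, a receptor gene for tumour necrosis factor, at 0.972, cbx7a at 0.968, TAGLN (ENSDARG00000033466) at 0.968, UCHL1 at 0.966 and ELOVL6 at 0.966. Without treated sibling replicate 2 the correlations of these 15 genes were 0.94 to 0.986, but their ranks changed. For fosab, surf6 then ranked 19, NSUN4 16 and METTL16 23, for fosl1a marcksl1a ranked 7 and tmem154 14, and for atf3 ELOVL6 ranked 6 and UCHL1 7, while the other 8 stayed among the first 5.

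Other genes of the Fos and Jun family add to the picture. fosl1b, the second copy of fosl1, had 18.2, 24.8 and 23.3 CPM in mutants at 3 h and 0.977, 1.43 and 1.75 CPM in untreated mutants, against 0.466, 4.58 and 2.40 CPM in siblings at 3 h and no read in any untreated sibling. With a floor of 3 counts over the 3 libraries, fosl1b was at least 40.1-fold higher in untreated mutants and at least 66.9-fold higher in treated siblings than in untreated siblings (adjusted p = 0.0082 and 0.00065). Without replicate 2 of the treated siblings, which held 105 of their 190 reads, that second bound was 41.4-fold. It was also higher in mutants than in siblings at 3 h (log2 fold change 3.17, adjusted p = 0.0098, and 3.95 without that library) and in treated than in untreated mutants (3.99, adjusted p = 0.0019). june, a further Jun gene, averaged 10.8 ± 1.34 CPM in mutants and 4.49 ± 1.51 CPM in siblings at 3 h (SD, n = 3 each, log2 fold change 1.27, adjusted p = 0.012 from edgeR), and 6.03 ± 0.729 CPM in mutants and 7.14 ± 0.962 CPM in siblings in homeostasis (adjusted p = 0.78). Its call at 3 h was lost in a fit of only the 2 groups (adjusted p = 0.077). fosl2l had at most 36 reads in a library and passed no test. Reads that map to several places have a row of their own in the deposited table and were given to no gene, so the values of fosl1a, fosl1b and the junb genes are uncertain where copies share sequence.

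Among 53 tested genes of related bZIP factors, which can pair with or compete with AP-1, 12 were higher in mutants than in siblings at 3 h and 2 lower, while 5 were higher and none lower in homeostasis. These are 22.6% and 3.77% at 3 h and 9.43% higher in homeostasis, where 4.9%, 4.88% and 1.85% of all tested genes were called. The median log2 fold change of the list was 0.27 at 3 h and 0.20 in homeostasis, beside -0.14 and 0.01 for all tested genes. With fosl1b at its lower bound the homeostasis median stays the same, since that bound also lies above it. CEBPB averaged 375 ± 71.4 CPM in mutants and 54.3 ± 16.6 CPM in siblings at 3 h (SD, n = 3 each, log2 fold change 2.79, adjusted p = 0.00016 from edgeR) and was also higher in homeostasis (2.33, adjusted p = 0.00096). atf5a was higher in mutants at 3 h (1.98, adjusted p = 0.00065) and MAF (ENSDARG00000015890) lower (-1.75, adjusted p = 0.0043, and 0.056 in a fit of only the 2 groups), and nfe2l2b was higher in homeostasis (1.41, adjusted p = 0.0045). fosl1b is the third bZIP gene named in homeostasis by its adjusted p. After neomycin, 8 of the 53 (15.1%) rose and 7 (13.2%) fell in mutants, beside 6.95% and 9.56% of all tested genes. In siblings 7 (13.2%) rose and 6 (11.3%) fell, near the 11.2% and 10.8% of all tested genes. Over the other settings and each library left out, the calls in the list numbered 6 to 20 at 3 h, 4 to 8 in homeostasis, 10 to 22 for the response of mutants and 6 to 19 for that of siblings. NFE2L2, whose product drives genes of the oxidative stress response, fell by 1.29 in mutants (adjusted p = 0.00029) and fell by 1.88 in siblings (adjusted p = 1.5e-05). In mutants atf5b rose by 1.08 and CREB3L1 fell by 1.43, and in siblings bach2a, a gene of a repressor that competes at related sites, fell by 2.42 (adjusted p = 7.1e-05).

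Kinases, Ras proteins and serum response factor act upstream of AP-1. Of 47 such genes, edgeR called 0 in homeostasis, with 8 at an unadjusted p under 0.05, 3 called by DESeq2 and 1 by limma-voom. At 3 h 7 (14.9%) were higher and 1 (2.13%) was lower in treated mutants, beside 4.9% and 4.88% of all tested genes. The list's median log2 fold change was 0.13 in homeostasis and 0.31 at 3 h. SRF (ENSDARG00000102867), a factor that binds the Fos promoter in mammals, averaged 2.88 ± 0.244 CPM in mutants and 0.574 ± 0.225 CPM in siblings at 3 h (SD, n = 3 each, log2 fold change 2.30, adjusted p = 0.0039 from edgeR). That change rests on low counts, with 24, 8 and 17 reads in the treated siblings. HRAS (ENSDARG00000005651) had a log2 fold change of 1.28 (adjusted p = 0.007), and MAPK9, which encodes a Jun kinase, of 1.00 (adjusted p = 0.0074, and 0.057 in a fit of only the 2 groups). After neomycin, 4 (8.51%) rose and 1 (2.13%) fell in mutants and 5 (10.6%) rose and 1 (2.13%) fell in siblings. The shares that rose are near those of all tested genes, 6.95% and 11.2%. Calls numbered 3 to 11 at 3 h, 0 to 5 in homeostasis, 3 to 12 for mutants and 2 to 8 for siblings over the other settings and each library left out. HRAS (ENSDARG00000098497) rose by 1.40 in mutants (adjusted p = 0.00059) and by 1.08 in siblings (adjusted p = 0.0023). NRAS rose by 0.78 and MAP2K6, a kinase upstream of p38, fell by 1.31 in mutants. MAPK12 (ENSDARG00000042021), a p38 kinase gene, rose by 0.76 in siblings and MAP3K5, a stress kinase gene, fell by 1.75. The call of MAPK12 (ENSDARG00000042021) was lost without replicate 1 or 2 of the untreated siblings and in a fit of only the 2 groups (adjusted p from 0.059 to 0.11).

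Of 23 feedback genes, which encode phosphatases and other inhibitors of MAP kinase signalling or of short-lived transcripts, 8 (34.8%) were higher and 1 (4.35%) was lower in treated mutants, beside 4.9% and 4.88% of all tested genes. In homeostasis edgeR called 1 higher, while DESeq2 and limma-voom called 4 each. The edgeR call was DUSP5, whose product removes phosphate from ERK in the nucleus. DUSP5 had 124, 152 and 114 CPM in mutants at 3 h and 10.7, 10.3 and 8.58 CPM in untreated mutants, against 6.99, 12.4 and 7.10 CPM in siblings at 3 h and 3.78, 1.19 and 1.24 CPM in untreated siblings. Its treated mutants stood apart from all other libraries, as those of fosl1a did, and its log2 fold change between genotypes was 3.88 at 3 h (adjusted p = 0.00021) and 2.24 in homeostasis (adjusted p = 0.0092, and 3.01 without replicate 1 of the untreated siblings). DUSP4, another MAP kinase phosphatase gene, and ZFP36L1 (ENSDARG00000016154), whose product speeds decay of short-lived transcripts, were higher in mutants at 3 h by 1.70 and 1.29. After neomycin, DUSP5 rose by 3.71 in mutants and 2.08 in siblings (2.80 without that library), and DUSP4 by 1.74 in mutants and 0.96 in siblings. The sibling call of DUSP4 was lost without replicate 3 of the treated siblings, replicate 2 or 3 of the untreated siblings and in a fit of only the 2 groups (adjusted p from 0.065 to 0.13). SPRY2, an inhibitor of receptor signalling, fell by 0.94 in mutants, and dusp14 fell by 1.57 in siblings. In all, 4 of the 23 rose and 4 fell in mutants (17.4% each, beside 6.95% and 9.56% of all tested genes), and 2 (8.7%) rose and 4 (17.4%) fell in siblings, beside 11.2% and 10.8%. With the other settings and libraries left out, the calls numbered 4 to 10 at 3 h, 1 to 5 in homeostasis, 5 to 14 for mutants and 2 to 8 for siblings.

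Of 55 tested genes reported as AP-1 targets, mainly in mammals, 19 (34.5%) were higher and 1 (1.82%) was lower in treated mutants, beside 4.9% and 4.88% of all tested genes, and 10 (18.2%) were higher and 1 (1.82%) lower in homeostasis, beside 1.85% and 1.72%. The median log2 fold change was 0.73 at 3 h and 0.87 in homeostasis. TIMP2 (ENSDARG00000075261), a gene of a metalloproteinase inhibitor, averaged 25.6 ± 6.62 CPM in mutants and 2.68 ± 0.659 CPM in siblings in homeostasis (SD, n = 3 each, log2 fold change 3.25, adjusted p = 0.00015 from edgeR) and differed by 3.58 at 3 h (adjusted p = 3.8e-05). The annexin genes ANXA2 and ANXA1 were higher in untreated mutants by 2.2 (adjusted p = 0.0007) and 1.73 (adjusted p = 0.0016). MMP9, which encodes a matrix metalloproteinase, had 106, 43.4 and 94.8 CPM in mutants and 8.93, 7.77 and 9.03 CPM in siblings at 3 h, without overlap (log2 fold change 3.25, adjusted p = 0.00011). After neomycin, 21 of the 55 (38.2%) rose and 4 (7.27%) fell in mutants, beside 6.95% and 9.56% of all tested genes, and 12 (21.8%) rose and 6 (10.9%) fell in siblings, beside 11.2% and 10.8%. Across the other settings and libraries left out, 16 to 24 were called at 3 h, 6 to 23 in homeostasis, 16 to 29 for mutants and 13 to 20 for siblings. TIMP2 (ENSDARG00000075261) rose by 2.07 and ITGB1 (ENSDARG00000104484), an integrin gene, by 1.12 in mutants, and s100a10b, whose product binds annexin A2, rose by 2.37 (1.70 without treated sibling replicate 2) and ANXA2 by 1.60 in siblings.

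PTGS2 (ENSDARG00000010276), the gene of an inducible cyclooxygenase that makes prostaglandins, was the 1 target gene for which edgeR called a difference between the neomycin responses of the genotypes, where limma-voom called 1 target and DESeq2 called 3. It had 80.0, 80.4 and 83.5 CPM in mutants at 3 h and 26, 39.7 and 23.5 CPM in untreated mutants, against 6.10, 6.19 and 5.11 CPM in siblings at 3 h and 16.5, 31.3 and 24.4 CPM in untreated siblings. Treated mutants lay above and treated siblings below both untreated groups, which overlapped. PTGS2 (ENSDARG00000010276) rose by 1.45 in mutants (adjusted p = 0.002) and fell by 2.05 in siblings (adjusted p = 0.00018), and the difference between the responses was 3.50 ± 0.36 SE on the log2 scale (adjusted p = 0.003).

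Of 41 other immediate early genes, 13 (31.7%) were higher in mutants at 3 h, 7 (17.1%) were higher in homeostasis and none was lower in either, where 4.9% and 1.85% of all tested genes were higher. The median log2 fold change was 0.46 at 3 h and 0.50 in homeostasis. egr1, a zinc finger factor gene induced with Fos in many cells, averaged 109 ± 14.6 CPM in mutants and 26.8 ± 15.5 CPM in siblings in homeostasis (SD, n = 3 each, log2 fold change 2.02, adjusted p = 0.0043 from edgeR). egr2a was higher in mutants by 2.66 in homeostasis (adjusted p = 0.00063) and by 2.17 at 3 h (adjusted p = 0.00065), and CCN2, a matrix protein gene, by 2.86 (adjusted p = 0.0015) and 3.06 (adjusted p = 0.00049). SOCS3 (ENSDARG00000025428), an inhibitor of cytokine signalling, was higher at 3 h by 2.76 (adjusted p = 0.00024). After neomycin, 9 (22%) rose and 1 (2.44%) fell in mutants, beside 6.95% and 9.56% of all tested genes, and 7 (17.1%) rose and 3 (7.32%) fell in siblings, beside 11.2% and 10.8%. The other settings and libraries left out gave 12 to 17 calls at 3 h, 4 to 11 in homeostasis, 3 to 19 for mutants and 3 to 13 for siblings.

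egr4 resembled fosb in being highest in treated siblings. It had 10.1, 14.7 and 6.01 CPM in mutants at 3 h and 1.58, 0.0735 and 0.350 CPM in untreated mutants, against 18.7, 69.4 and 29.3 CPM in siblings at 3 h and 0.545, 0.526 and 0.292 CPM in untreated siblings. It rose by 3.91 in mutants (adjusted p = 0.0038) and by 6.41 in siblings (adjusted p = 0.00021), with its highest value in the library that stood apart. The rise was 5.53 in mutants without untreated replicate 1, and 5.66 in siblings without treated replicate 2. GADD45G (ENSDARG00000019417), a gene of the growth arrest response, rose by 2.74 in mutants and 2.95 in siblings (1.95 without treated sibling replicate 2), ier2b rose by 1.56 in mutants and egr2a by 1.21 in siblings (adjusted p = 0.0079, and 0.071 in a fit of only the 2 groups).

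Between untreated mutants and treated siblings, where 7.57% of all tested genes were called higher and 8.03% lower, 3 of the 47 upstream genes (6.38%) were higher and 1 (2.13%) lower, and 5 of the 23 feedback genes (21.7%) were higher and none lower. MAP3K5 and mrtfbb, a cofactor of serum response factor, were higher in untreated mutants by 1.19 and 1.12, and mapk11 was lower (-1.41, adjusted p = 0.03). DUSP6, SPRY4 and DUSP8 were higher by 1.42, 0.98 and 1.35. Apart from mapk11, the calls of these 6 genes were lost in a fit of only the 2 groups (adjusted p from 0.060 to 0.10), and mrtfbb, mapk11, SPRY4 and DUSP8 also lost theirs without replicate 1 of the untreated mutants (adjusted p from 0.062 to 0.12). Without replicate 3 of that group mrtfbb, mapk11 and DUSP8 were lost, and without replicate 2 mapk11. Of the 53 bZIP genes 8 (15.1%) were higher and 1 (1.89%) lower, led by bach2a (2.39), NFE2L2 (1.39) and CREB3L1 (1.24). Of the 55 targets 7 (12.7%) were higher, among them PTGS2 (ENSDARG00000010276) at 2.36 and VEGFA (ENSDARG00000034700) at 2.31, and 4 (7.27%) lower, among them ITGB1 (ENSDARG00000022689) at -2.12. Of the 41 other immediate early genes 9 (22%) were higher, among them SOCS3 (ENSDARG00000025428) at 2.06 and SOCS3 (ENSDARG00000026611) at 2.22, and 2 (4.88%) lower, among them egr4 at -5.84 (-7.43 without untreated mutant replicate 1 and -5.12 without treated sibling replicate 2). Calls numbered 1 to 8 for upstream, 0 to 7 for feedback, 6 to 16 for bZIP, 6 to 20 for target and 8 to 17 for other immediate early genes over the other settings and libraries left out. Some genes named here as higher did not exceed untreated siblings. In untreated mutants and untreated siblings bach2a averaged 30.5 and 31.1 CPM, and NFE2L2 992 and 1390 CPM. VEGFA (ENSDARG00000034700) averaged 33.6 and 35.2 CPM, and MAP3K5 91.8 and 136 CPM. The other list genes named here as higher had the higher mean in untreated mutants.

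**Figure D5:**
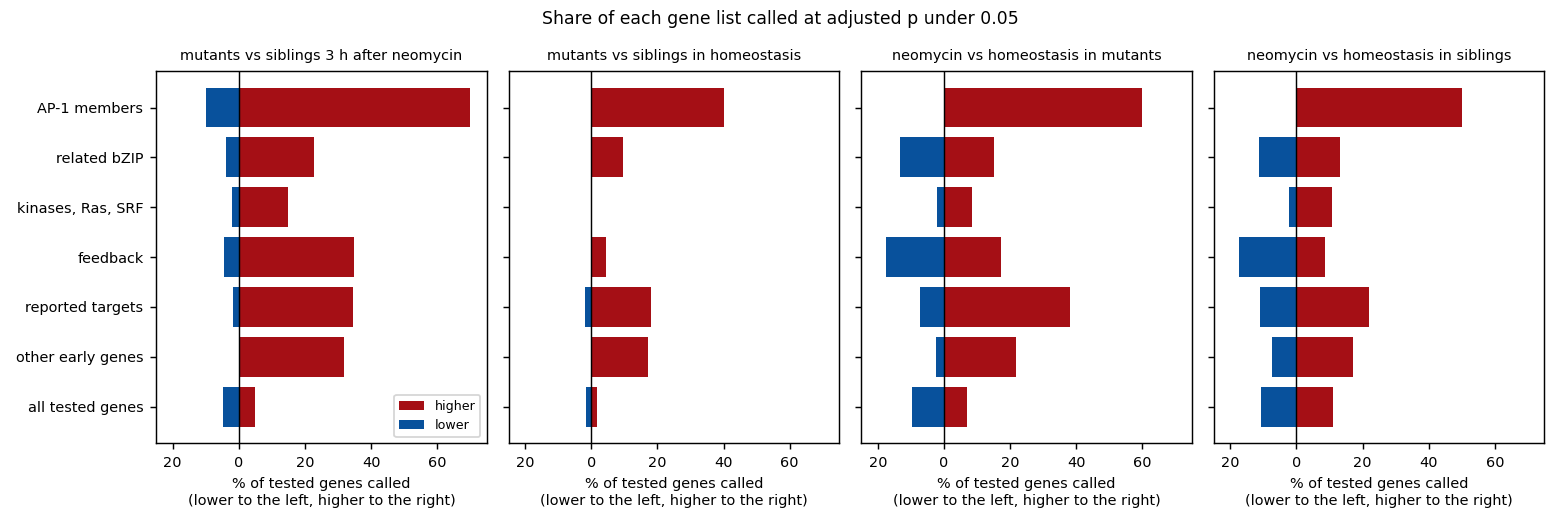
Percent of the tested genes of each list called at an adjusted p under 0.05, with genes called higher drawn to the right in red and genes called lower to the left in blue, for 4 comparisons; the bottom bars give all 22000 tested genes. In mutants against siblings at 3 h, 7 of 10 AP-1 subunit genes and 19 of 55 reported targets were called higher, where 4.9% of all tested genes were. The genes and lists were chosen with earlier results of these data known.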

How the data were processed

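RNA was measured in 12 libraries, 3 in each of 4 groups taken from the sample titles. Per the labels' protocols, cells were sorted into Trizol and libraries made with the SMART-Seq v4 kit, which does not mark strand. What the authors deposited is 1 table of raw read counts, whole numbers for each Ensembl gene and library. Tools named per the submitters' processing notes are STAR 2.7.3a, bcl2fastq 2.18, RSEM and Bowtie2, and the build is danRer11; their roles are not said. For the annotation, no release is given in the sources used here. The 4 rows that name no gene took 28.18% to 35.23% of a library and were left out. Symbols were found for 29201 of 32520 IDs; members and lists were matched ignoring case, else without the a or b suffix. The name table does not say which JUNB ID is junba. The series' 18 ATAC-seq samples are not analysed here, and no genome of the build was used.

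Genes passing edgeR's filterByExpr (22000) were scaled by TMM and fitted in 1 model with a mean per group (edgeR 4.0.16, R 4.3.3, quasi-likelihood test, two-sided, Benjamini-Hochberg adjustment over all tested genes, called at 0.05; common dispersion 0.104). Log2 fold changes carry a standard error or a 95% interval from that fit, and correlations used log2 CPM with a prior count of 2. Treated mutants and treated siblings with the same replicate number deviated together (correlations of 0.192, 0.302 and 0.46). In other pairs of groups not every number did so at over 0.1. These correlations depend on each other, since deviations from a mean of 3 libraries sum to 0. Replicate 2 correlated least with the rest of its group in both treated groups (0.967 in mutants and 0.925 in siblings). The labels name no pairing, so whether the numbers pair these 2 groups is not known. The main fit left treated mutants and treated siblings unpaired. The replicate block spanned all 4 groups, so a pairing of only the treated groups was not fitted. Replicate files differed by more than sampling noise in every group. Alternatives were DESeq2 1.42.0 (test and size factors), limma-voom 3.58.1, upper-quartile scaling, 2 other filters, a replicate block, fits of only the groups compared and each library left out. The edgeR fit was tested on simulated data with changes only in untreated mutants, read in the homeostasis comparison. Those counts were drawn with the fit's own estimates of spread, so they held no library that stands apart and no pairing. The other comparisons and tools were not tested in that way. The members and lists were chosen with earlier results of these data known. All members are named. From each list up to 3 called genes with the smallest adjusted p are named in each comparison. The 5 genes most correlated with fosl1a, fosab and atf3 are also named, among tested genes whose symbol is not a clone or locus name. DUSP5 stands for its list in full, and fosl1b, june and fosl2l were named after their values were seen. 1 gene was dropped from the lists after its values were seen, because its name matched another gene. Reads are PCR copies without molecular identifiers, so the floor for fosl1b covers counting error only.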

Additional observations from a re-analysis of the deposited data

Results flagged for a closer look

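The neomycin response of PTGS2 (ENSDARG00000010276) differed between genotypes by 3.50 on the log2 scale, mutants minus siblings (adjusted p = 0.003, edgeR's quasi-likelihood test of the difference itself). The gene rose in all 3 treated mutants, which held 80.0 to 83.5 CPM, and fell in all 3 treated siblings, which held 5.11 to 6.19 CPM, relative to the untreated libraries of each genotype. Over the other settings and each library left out, the difference was 3.27 to 3.80 and the adjusted p 1.2e-15 to 0.025.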

How the results depend on the processing

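With each library left out in turn, the number of AP-1 subunit genes called was 4 to 7 for mutants against siblings in homeostasis (main value 4), 6 to 8 at 3 h (8), 5 to 7 for the neomycin response of mutants (6), 3 to 6 for that of siblings (5), 0 to 1 for the difference between the responses (0) and 4 to 6 for untreated mutants against treated siblings (6). The homeostasis value of 7, the difference of 1 and the sibling value of 6 came without replicate 2 of the treated siblings, and the sibling value of 3 without replicate 2 of the untreated siblings. Fits of only the 2 groups compared gave 5 genes in homeostasis, 7 at 3 h, 9 for the response of mutants, 3 for that of siblings and 4 for untreated mutants against treated siblings. In the same order, these fits called 10.7%, 3.03%, 29.8%, 10.9% and 6.08% of all tested genes. The cause was not tested. Scaling by DESeq2 size factors or the upper quartile, the DESeq2 test, limma-voom and both other filters gave 4 to 5, 8, 6, 4 to 5, 0 and 6. Wherever 5 genes were called in homeostasis, the added gene was atf3. A replicate block gave 4, 8, 6, 5, 0 and 6 genes and changed no call of a member or of a named list gene, also between the treated groups, where replicate numbers go with shared deviations. In the other 5 pairs of groups not every same-numbered pair correlated above 0.1 (-0.059 to 0.262).

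Per gene, 671 of the values with a library left out kept their direction and side of the threshold, 10 gained a call, 21 lost it and 18 changed sign. With the other settings these numbers were 445, 9, 6 and 2. fosb in homeostasis (-0.11) was 0.023 with limma-voom and -0.37 to 0.61 with a library left out. JUNB (ENSDARG00000074378) in siblings (0.07) was -0.024 without a filter and -0.33 to 0.64 with a library left out. The other sign changes were in jund in homeostasis (-0.039 to 0.35), fosaa and jund in siblings (-0.32 to 0.80 and -0.083 to 0.30), JUNB (ENSDARG00000104773) in the difference between responses (-0.082 to 0.43) and jund in untreated mutants against treated siblings (-0.20 to 0.21). The share of all tested genes called ranged over the settings from 1.31% to 10.7% in homeostasis, 3.03% to 16.2% at 3 h, 9.61% to 29.8% for the response of mutants, 10.9% to 27.4% for that of siblings, 0.0133% to 1.51% for the difference and 6.08% to 22.6% for untreated mutants against treated siblings.

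The named list genes and list counts were run under the same settings after their values were seen. Counts moved by over 1.5 times in fits of only the 2 groups, under DESeq2 and with single libraries left out. In homeostasis they did so without treated sibling replicate 2 (21 targets against 11, 8 bZIP genes against 5, 5 feedback genes against 1 and 5 upstream genes against 0) or without untreated sibling replicate 2 (6 targets against 11 and 4 other immediate early genes against 7). The share of all tested genes called moved too, from 3.57% to 9.19% and 1.37% in those fits. At 3 h the upstream count of 8 was 3 without replicate 1 and 4 without replicate 3 of the treated mutants. In mutants the other immediate early genes numbered 3 to 5, against 10, without any 1 mutant library. With a replicate block, 16 bZIP and 17 other immediate early genes were called between untreated mutants and treated siblings, against 9 and 11, and 2 feedback and 3 upstream genes in homeostasis, against 1 and 0.

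With 3 libraries a group, the biological coefficient of variation was 32.3%. fosaa, with at most 21 reads in a library, had the widest intervals of the 10 genes. A gene given as not called is limited only by its interval.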
